A study of Mus musculus with 11 samples.

Results

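Small nucleolar RNAs (snoRNAs) and the genes that carry them were followed through 4 groups of mouse thymus samples. Members were all array features (probe sets) whose annotated gene symbol began with Snora, Snord or Snhg and a digit, or was Gas5, and a probe set with several symbols was kept as 1 unit. This gave 109 probe sets of the 28939 tested. Their annotation held 89 symbols, counting other genes named beside a snoRNA or host in the same probe set. By class there were 33 box C/D snoRNAs (Snord), 23 box H/ACA snoRNAs (Snora), 12 probe sets of non-coding host genes (Snhg and Gas5), 17 with several symbols, and 24 of the imprinted Snord116 array. The 24 Snord116 probe sets lay at the lowest value of the table (log2 3.32, the log2 of 10) on all 11 arrays, so no level could be read for them. The other 85 were above this floor on at least 1 array, 5 of them not on all arrays. Some probe sets were copies: 8 of the 85 shared all values with another one, which left 81 distinct patterns.

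snoRNAs guide chemical marks onto ribosomal RNA in the nucleolus. Box C/D snoRNAs direct ribose methylation by fibrillarin (Fbl), and box H/ACA snoRNAs direct pseudouridylation by dyskerin (Dkc1), each within a particle of core proteins (snoRNP). In mammals most snoRNAs are cut from introns of host genes. Some hosts encode ribosomal proteins or ribosome assembly factors, while others, such as Gas5 and the Snhg genes, are spliced into non-coding RNAs that are decayed during translation. Many host transcripts begin with a run of pyrimidines, a terminal oligopyrimidine start, which ties their translation to growth signals. MYC is known to drive ribosome production, and Dnmt3b is a methyltransferase that sets new DNA methylation.

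The mice were FVB and carried EμSR-tTA, which in blood cells activates genes under the Teto promoter, and the Rosa26LOXPEGFP reporter. Normal thymocytes (n = 3, 24 days of age) also carried Teto-Cre and had the genotype Dnmt3b+/+, without the MYC transgene. Wild-type lymphomas (n = 3, taken once tumors were apparent) carried Teto-MYC and Dnmt3bF/F without Cre. Dnmt3b-/- lymphomas (n = 3, likewise taken as tumors) and pre-tumor Dnmt3b-/- thymocytes (n = 2, 24 days of age) carried Teto-MYC and Teto-Cre, with the labelled genotype Dnmt3b-/-. All groups but the normal one thus share MYC, and among the tumors Cre goes with the loss of Dnmt3b. Per the labels, pre-tumor thymi were sorted for EGFP and tumors were not; whether normal thymocytes were sorted is unclear. Differences of MYC, stage, sorting, Dnmt3b genotype (in the Dnmt3b-/- groups) and Cre (in the wild-type lymphomas) cannot be told apart in the comparisons with normal thymocytes. The labels call the samples of a group biological replicates.

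The values are array signals on a log2 scale, so a difference of 1 is a 2-fold change. Arrays have no read depth, and their number limits the precision. Between 23.6% and 25.7% of the values of each array sat at the floor, and array medians lay between 4.53 and 4.66. The Dnmt3b probe set differed by -0.17 between the tumor genotypes (limma adjusted p = 0.899; two-sided exact permutation p = 0.3, where 0.1 is the smallest possible), and the sources do not say whether it covers the deleted part. The mouse Myc probe set was lower than normal in all 8 samples with the MYC transgene, by differences of -2.66, -3.28 and -2.03 in wild-type lymphomas, Dnmt3b-/- lymphomas and pre-tumor thymocytes (limma adjusted p = 0.000728, 0.000266 and 0.0032), and whether it reads the transgene is not given. Mean levels of 10 T lineage markers were 10.44 to 10.51 in normal thymocytes, 8.80 to 9.40 in pre-tumor thymocytes, 7.35 to 8.03 in wild-type lymphomas and 7.87 to 7.93 in Dnmt3b-/- lymphomas. Of the other marker lists, 7 macrophage genes averaged 4.92 to 5.03 in normal thymocytes, 4.27 to 4.36 in pre-tumor thymocytes, 4.70 to 6.24 in wild-type lymphomas and 4.30 to 5.10 in Dnmt3b-/- lymphomas. The 6 neutrophil genes averaged 4.99 to 5.52, 4.02 to 4.04, 4.19 to 6.79 and 3.97 to 6.13 in the same order. The part of this cell content in the results was not tested, and in such bulk RNA fewer cells of a type cannot be told from less RNA per cell. A probe set of a snoRNA may also read its precursor or the host intron, which the sources do not settle.

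The sequences behind these RNAs that could be read are the start regions of the host genes. RefSeq windows (GRCm38.p6, 250 bases before to 50 bases after the start) were found for 44 of 55 host genes by symbol. A start of C followed by at least 4 bases that are C or T was found in 8 of the 44 hosts (18.2%), against 3.01% of all 27025 genes of the table. Of 2 annotated Gas5 starts, the window of the second (chr1:161034916-161035215, plus strand, non-coding gene) is shown because Gas5 had the largest difference of all members, with its 5 leading pyrimidines in capitals.
Gas5: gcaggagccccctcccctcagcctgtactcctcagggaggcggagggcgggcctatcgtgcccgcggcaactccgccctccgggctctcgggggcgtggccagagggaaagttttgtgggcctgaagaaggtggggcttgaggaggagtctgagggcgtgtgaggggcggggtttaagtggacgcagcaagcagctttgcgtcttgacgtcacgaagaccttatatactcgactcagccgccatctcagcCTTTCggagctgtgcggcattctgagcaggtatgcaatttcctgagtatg

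Around the starts (20 bases before, 30 from the start on), other non-coding hosts are compared with it, again with a pyrimidine start in capitals. Snhg7 (chr2:26640215-26640264, minus strand), Snhg8 (chr3:123508307-123508356, minus strand) and the Snord52 host 1110038B12Rik (chr17:34952439-34952488, minus strand) had one, though a second annotated start of 1110038B12Rik did not, nor did the other Gas5 start. Snhg5 (chr9:88522868-88522917, minus strand) and Snhg16 (chr11:116671640-116671689, plus strand) had none at the annotated base. Of the non-coding hosts not shown, Gm36220 had one. Snhg1, Snhg3, Snhg11, Snhg12, Snhg14, Snhg15, Snhg17 and 2410006H16Rik had none.
Snhg7: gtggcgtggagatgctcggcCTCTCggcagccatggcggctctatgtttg
Snhg8: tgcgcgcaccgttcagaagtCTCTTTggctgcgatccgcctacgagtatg
1110038B12Rik: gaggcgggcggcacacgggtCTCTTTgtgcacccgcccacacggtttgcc
Snhg5: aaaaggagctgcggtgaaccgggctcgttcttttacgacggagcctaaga
Snhg16: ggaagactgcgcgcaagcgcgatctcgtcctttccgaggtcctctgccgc

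The E-box CACGTG, which reads the same on both strands and is the preferred site of MYC with its partner MAX, lay in the windows of 9 of 44 hosts (20.5%), against 8.09% of all genes. The 30 bases around it (E-box in capitals) are shown for hosts of members described below. They come from Wdr43 (chr17:71616220-71616249, plus strand), Ipo7 (chr7:110018166-110018195, plus strand), Rpl13a (chr7:45128928-45128957, minus strand), the Snord104 host Gm36220 (chr11:106500801-106500830, plus strand) and Snhg15 (chr11:6528732-6528761, minus strand). No E-box lay in the windows of Gas5, Ncl, Snhg5, Snhg16, Snhg17 or Nop56, which are also described below. A match says only that these letters are in the window, and binding was not measured here.
Wdr43: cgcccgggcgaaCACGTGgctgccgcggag
Ipo7: gtgggagccagcCACGTGggccgtgtccgc
Rpl13a: cgctccgaaaccCACGTGacatcccgcccc
Gm36220: gtcgctcttgagCACGTGacaagaaagctg
Snhg15: taactttaagcaCACGTGagcgtcctcagc

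In both kinds of lymphoma, some non-coding hosts and some box H/ACA snoRNAs were higher than in normal thymocytes. Box C/D snoRNAs moved both ways, at shares near those over all probe sets. Against normal, 18 of 109 members rose and 3 fell in wild-type lymphomas, and 19 rose and 3 fell in Dnmt3b-/- lymphomas. Changed means a Benjamini-Hochberg adjusted p under 0.05 in limma over all 28939 probe sets. The background of this threshold was 9.58% of probe sets higher and 10.3% lower in wild-type lymphomas. It was 9.7% higher and 10.5% lower in Dnmt3b-/- lymphomas. The members' shares were 16.5% higher and 2.75% lower in the former and 17.4% and 2.75% in the latter.

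By class, 5 of 12 non-coding host probe sets rose in wild-type and 8 of 12 in Dnmt3b-/- lymphomas, with none lower. The medians of this class were 0.58 and 0.84. Some of the 12 are probe sets of the same gene (Gas5, Snhg17 or Snhg11), so these counts are not of separate genes. Of 23 box H/ACA probe sets 8 rose and none fell in either lymphoma (medians 0.21 and 0.41). Of 33 box C/D probe sets 3 rose and 3 fell in either lymphoma (medians -0.18 and -0.10). These shares of 9.09% in each direction were near those over all probe sets given above. The wild-type box C/D median was -0.019 without wild-type replicate 1 and -0.042 without normal replicate 1, and the Dnmt3b-/- one was 0.11 without normal replicate 1 and -0.22 without normal replicate 3. Of the 17 with several symbols, 2 rose in wild-type and none in Dnmt3b-/- lymphomas (medians 0.21 and 0.22), or 0.14 and 0.09 without normal replicate 3. The wild-type box H/ACA median was 0.38 without normal replicate 1 and 0.33 without wild-type replicate 2, and the Dnmt3b-/- one was 0.27 without Dnmt3b-/- replicate 2. Over all 24171 tested probe sets above the floor the median difference was -0.05 and -0.02. The plot of differences by class shows these spreads.

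**Figure D1:**
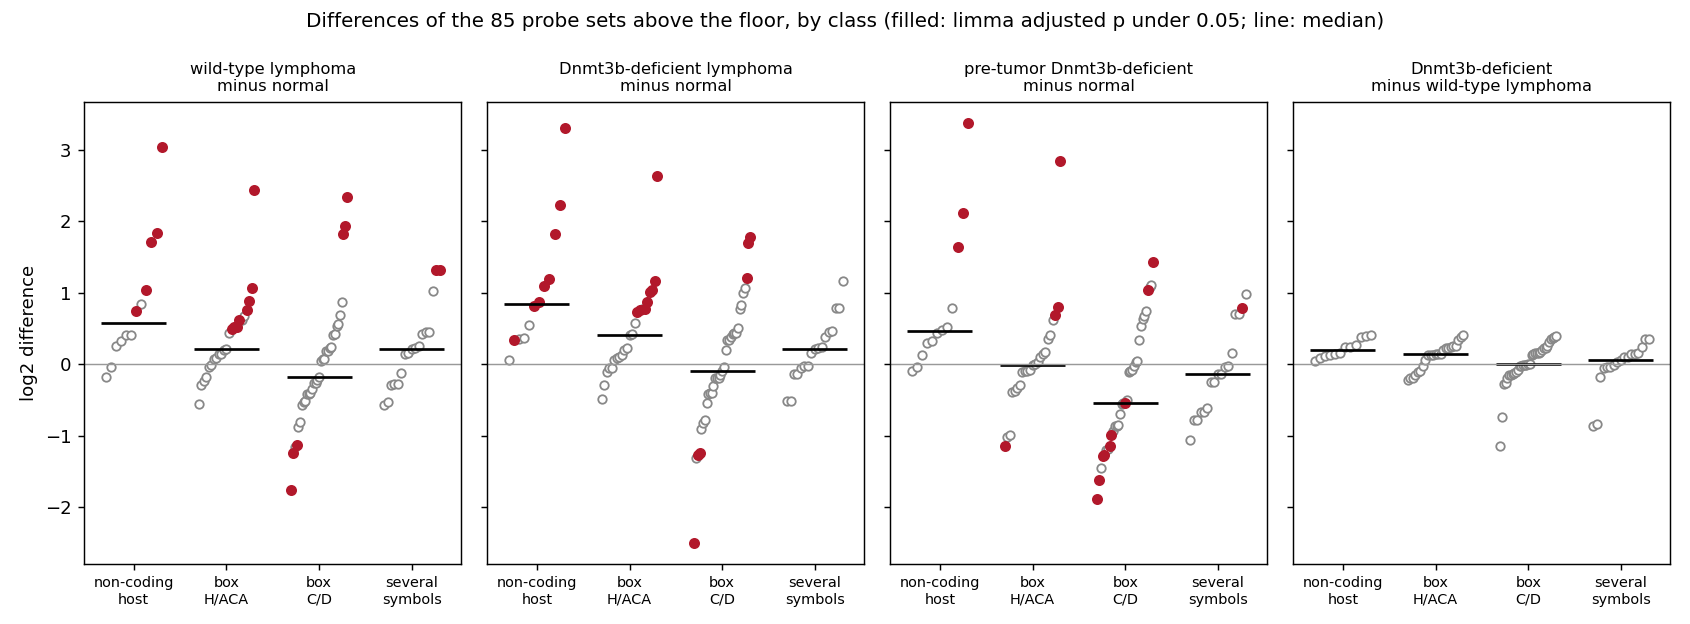
Each point is 1 of the 85 probe sets above the floor; the vertical axis is the log2 difference of the comparison named on top, the horizontal axis the class, filled points passed limma at adjusted p under 0.05 and lines are class medians. Non-coding hosts lie mostly above 0 in the 3 comparisons with normal thymocytes, box C/D snoRNAs spread to both sides, and no point is filled in the comparison of the tumor genotypes.

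Gas5, a non-coding host of many box C/D snoRNAs that is named for its build-up in growth-arrested cells, showed the largest rise. Its probe set 10351039 stood at 4.11, 4.03 and 5.20 in normal thymocytes and at 7.83, 7.39 and 7.23 in the wild-type lymphomas. It stood at 7.62, 8.13 and 7.50 in Dnmt3b-/- lymphomas and at 7.14 and 8.51 in pre-tumor thymocytes. Every sample with the MYC transgene was above every normal sample. The rise was 3.04 (SE 0.45, 8.22-fold, limma adjusted p = 0.00357) in wild-type lymphomas, 3.30 (SE 0.45, 9.88-fold, 0.00228) in Dnmt3b-/- lymphomas and 3.38 (SE 0.50, 10.4-fold, 0.00495) in pre-tumor thymocytes.

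The other 3 Gas5 probe sets differed in size. Probe set 10351035 rose by 1.83, 2.22 and 2.11 in wild-type lymphomas, Dnmt3b-/- lymphomas and pre-tumor thymocytes (limma adjusted p = 0.00319, 0.00135 and 0.00399), and 10351026 by 1.71, 1.82 and 1.64 (0.00221, 0.00147 and 0.00514). Probe set 10351037 differed by 0.41, 0.55 and 0.52 and did not pass (0.256, 0.128 and 0.191), except without normal replicate 1 in Dnmt3b-/- lymphomas (0.0294) and pre-tumor thymocytes (0.0458). Its normal samples were at 10.55, 10.08 and 9.71 and overlapped the lymphomas (10.33 to 10.77). Snord47, a box C/D snoRNA that RefSeq places within Gas5, differed by 0.87, 1.07 and 1.11 and did not pass (0.218, 0.135 and 0.161), with normal replicate 3 at 5.24 far below the others (6.97 and 6.51).

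Among the other non-coding hosts, Snhg5 was at 7.66, 7.95 and 8.04 in normal thymocytes, 9.15, 8.97 and 8.63 in the wild-type lymphomas and 9.19, 9.18 and 8.84 in Dnmt3b-/- lymphomas. The groups did not overlap, and the rises of 1.04 (SE 0.26) and 1.19 (SE 0.26) passed limma (adjusted p = 0.0296 and 0.0166). The wild-type rise was lost without normal replicate 1, 2 or 3 (0.0899, 0.0749, 0.0537) or wild-type replicate 1 or 2 (0.103, 0.0841). The other was lost without normal replicate 1 (0.0574) or Dnmt3b-/- replicate 1 or 2 (0.0533, 0.0587). In pre-tumor thymocytes Snhg5 was at 8.18 and 9.15, a difference of 0.78 that did not pass (0.111). It passed without pre-tumor replicate 1 (0.0185) and without the dimmest probe sets (0.0469).

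The 3 probe sets of Snhg17 all rose in Dnmt3b-/- lymphomas, by 0.87, 0.34 and 0.82 (limma adjusted p = 0.00916, 0.0224 and 0.019). In wild-type lymphomas the first of them, 10489235, rose by 0.74 (0.0189), and the others differed by 0.26 and 0.41 (0.0626 and 0.181). The former passed with median-centred arrays (0.0338) and the latter without wild-type replicate 1 (0.0461). The rise of 0.74 was lost without normal replicate 1 or 2 (0.0615, 0.068) or wild-type replicate 2 or 3 (0.0609, 0.0568). The rise of 0.34 (10489237) was lost without normal replicate 1 or 3 (0.0662, 0.0702) or Dnmt3b-/- replicate 3 (0.0679) and after quantile normalization (0.0929), and that of 0.82 (10489239) without normal replicate 2 (0.0689) or Dnmt3b-/- replicate 3 (0.0533).

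Snhg16, host of Snord1 genes, rose by 1.09 (SE 0.28, limma adjusted p = 0.0312) in Dnmt3b-/- lymphomas, where the samples (7.13, 6.69 and 7.44) were above the normal ones (6.24, 6.16 and 5.57). This was lost without normal replicate 2 or 3 (0.0637, 0.0864), wild-type replicate 1 (0.0505) or Dnmt3b-/- replicate 1 or 3 (0.0822, 0.0914). In wild-type lymphomas it differed by 0.85 (0.0777) and passed without the probe sets at the floor (0.0403). Snhg15, with an E-box near its start, differed by 0.33 and 0.37 (0.0836 and 0.0574) and passed in the lymphomas with median-centred arrays (0.04 and 0.0347) and without wild-type replicate 1 (0.00684 and 0.00581), the Dnmt3b-/- lymphoma difference also without wild-type replicate 3 (0.0283). Snhg11, a gene best known from neurons, was dim (3.75 to 5.11 over all samples of its 2 probe sets) and passed in no comparison. Some hosts share their probe set with a snoRNA and are outside this class. The probe set of Snora24 and Snhg8 differed from normal by -0.30 in wild-type lymphomas (limma adjusted p = 0.462). It differed by -0.05 in Dnmt3b-/- lymphomas and by -0.61 in pre-tumor thymocytes (0.152). That of Snora43 and Snhg7 differed by 0.26 (0.161), 0.22 (0.238) and -0.03 in the same order. None of these differences passed with all samples.

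Of the box H/ACA snoRNAs, Snora75 had the largest difference. It lies in an intron of Ncl, the gene of nucleolin. It was at 5.19, 4.77 and 5.11 in normal thymocytes, 7.33, 7.39 and 7.68 in the wild-type lymphomas, 7.85, 7.86 and 7.28 in Dnmt3b-/- lymphomas, and 7.18 and 8.56 in pre-tumor thymocytes. All 8 MYC samples were higher than the normal ones. The rises were 2.44 (SE 0.35, 5.42-fold), 2.64 (SE 0.35, 6.22-fold) and 2.84 (SE 0.39, 7.16-fold), with limma adjusted p = 0.00319, 0.00206 and 0.0039.

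Snora73a and Snora73b, which RefSeq places in Snhg3 and which are known as the U17 RNAs of ribosomal RNA processing, rose in the lymphomas only by smaller amounts. Snora73a was at 7.86, 7.72 and 7.76 in normal thymocytes, 7.83 and 7.80 in pre-tumor thymocytes, 8.35, 8.18 and 8.39 in the wild-type lymphomas and 8.51, 8.50 and 8.60 in Dnmt3b-/- lymphomas. Normal and pre-tumor samples overlapped, and both lymphomas lay above them. The rises against normal were 0.52 (SE 0.06) and 0.76 (SE 0.06), with limma adjusted p = 0.00164 and 0.000427, and the pre-tumor difference was 0.03 (0.935). Snora73b rose by 0.61 and 0.87 (0.0143 and 0.00317), the former lost without wild-type replicate 1 (0.0544), and differed by 0.18 in pre-tumor thymocytes (0.495).

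Further box H/ACA snoRNAs rose in both lymphomas: Snora41 (in Eef1b2, an elongation factor gene) by 1.07 and 1.04, Snora44 (in Snhg12) by 0.88 and 1.01, Snora70 (in Rpl10) by 0.76 and 1.16, and the 2 probe sets of Snora3 (in Rpl27a) by 0.49 to 0.52 and 0.74 to 0.77. Their limma adjusted p-values lay between 0.00274 and 0.0207. In wild-type lymphomas the Snora70 rise was lost without normal replicate 1 or 3 (0.0665, 0.0506) or wild-type replicate 1 or 2 (0.0571, 0.0699), and the Snora44 rise without normal replicate 1 (0.0511). The lower Snora3 value (10570432) was lost there without normal replicate 1 (0.0606) or wild-type replicate 2 or 3 (0.0566, 0.0521). Other intron neighbours did not move alike: Snora16a, also in Snhg12, differed by -0.02 and 0.13 and did not pass.

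**Figure D2:**
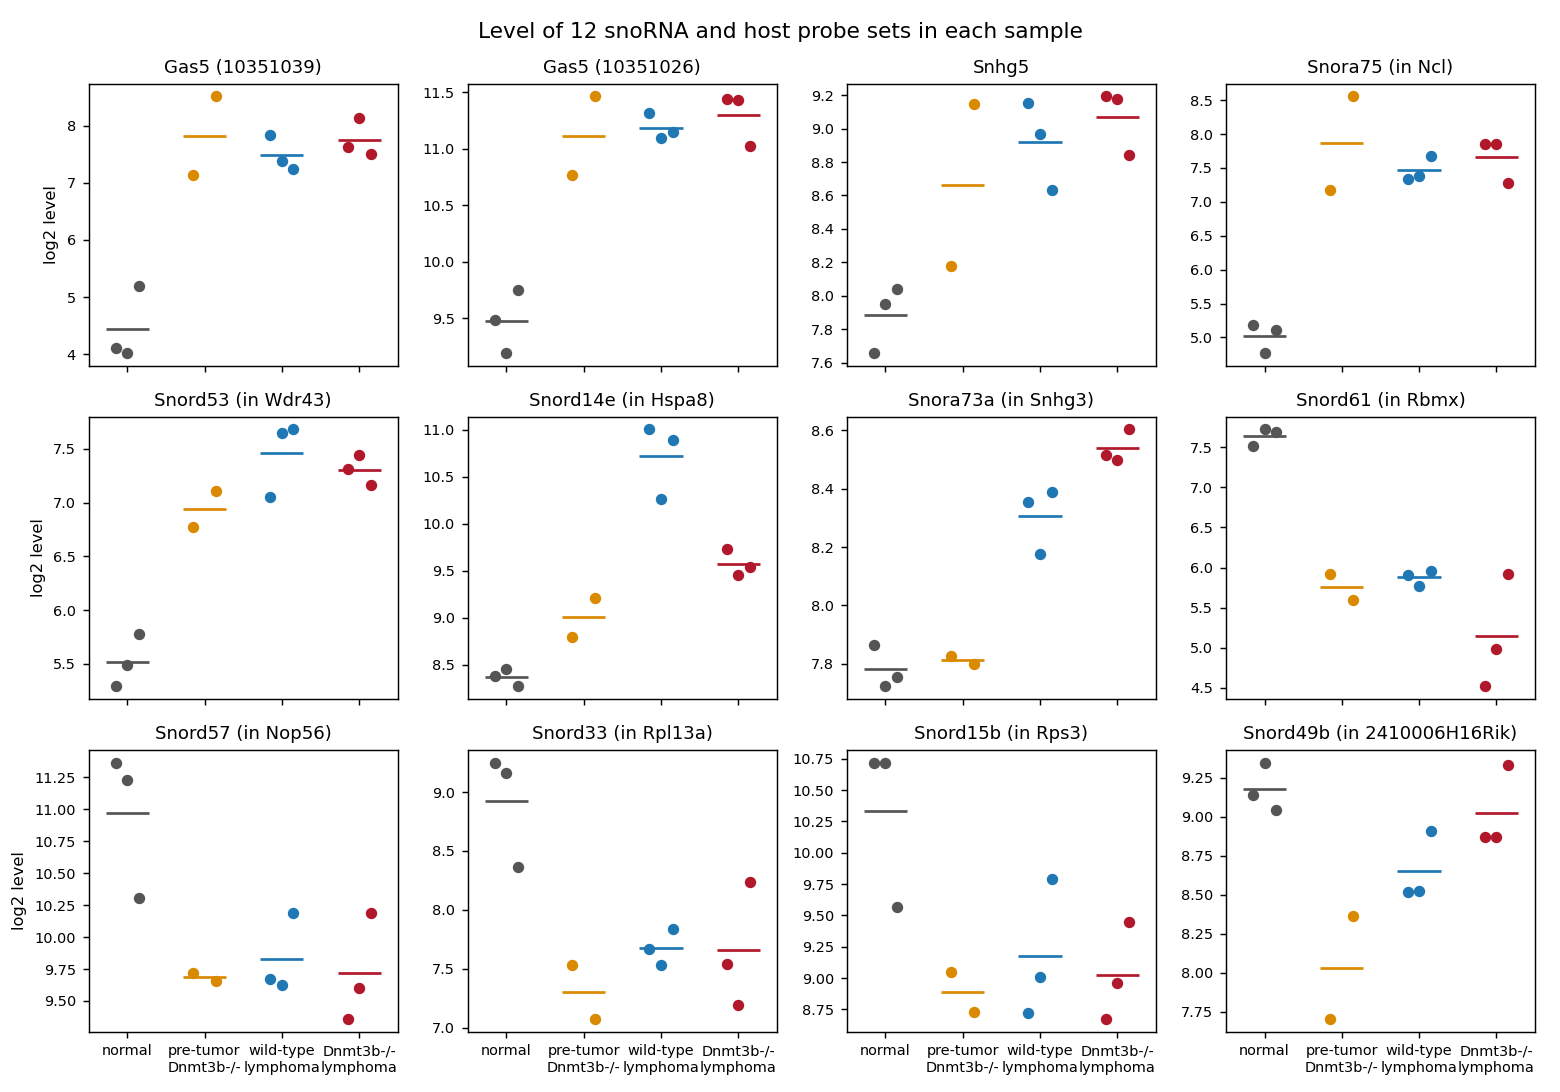
Each panel is 1 probe set and each point 1 sample; the vertical axis is the log2 level (panels differ in range), the horizontal axis the group, and lines are group means. Gas5 (probe sets 10351039 and 10351026), Snora75 and Snord53 are higher and Snord61 lower in every sample with the MYC transgene than in the 3 normal samples. The Gas5 probe set 10351037, where normal samples overlapped the others, is not drawn. Snord14e separates the lymphoma genotypes, and Snord57, Snord33 and Snord15b have 1 normal sample (replicate 3) below the other normal ones.

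The box C/D snoRNAs that rose in the lymphomas were Snord14e, Snord53 and Snord52. Snord53 lies in Wdr43, a gene of ribosomal RNA transcription and processing, and was at 5.30, 5.49 and 5.78 in normal thymocytes, 7.05, 7.65 and 7.68 in the wild-type lymphomas, 7.31, 7.44 and 7.16 in Dnmt3b-/- lymphomas, and 6.78 and 7.11 in pre-tumor thymocytes. Its rises were 1.94 (SE 0.20), 1.79 (SE 0.20) and 1.42 (SE 0.23), with limma adjusted p = 0.0011, 0.00124 and 0.00644; the pre-tumor rise was lost without pre-tumor replicate 2 (0.0604). Snord52, in the non-coding gene 1110038B12Rik, went from 5.22, 4.56 and 4.53 to 6.59, 6.68 and 6.51 in the wild-type lymphomas, and its Dnmt3b-/- lymphoma levels were 6.47, 6.39 and 6.54. Its rises were 1.82 (SE 0.17) and 1.69 (SE 0.17), with limma adjusted p = 0.000876 and 0.000875. It rose by 1.03 in pre-tumor thymocytes (5.74 and 5.87; 0.0109), a call lost without pre-tumor replicate 2 (0.0886).

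Snord14e, 1 of several U14 snoRNAs in introns of the chaperone gene Hspa8, was at 8.39, 8.46 and 8.28 in normal thymocytes. It was at 11.002, 10.27 and 10.89 in the wild-type lymphomas, 9.73, 9.46 and 9.54 in Dnmt3b-/- lymphomas, and 8.80 and 9.22 in pre-tumor thymocytes. No 2 of these groups overlapped. Against normal it rose by 2.34 (SE 0.20, 5.08-fold, limma adjusted p = 0.000704) in wild-type and by 1.20 (SE 0.20, 2.30-fold, 0.00542) in Dnmt3b-/- lymphomas, and differed by 0.63 in pre-tumor thymocytes (0.0965). The 2 near-identical probe sets annotated Snord14d;Snord14c;Hspa8 rose by 1.31 and 1.31 in wild-type lymphomas (0.00722 and 0.00803) and differed by 0.45 and 0.47 in Dnmt3b-/- ones (0.253 and 0.246). The 3 probe sets annotated Hspa8 alone rose by 0.53 to 0.73 in wild-type and by 0.59 to 0.75 in Dnmt3b-/- lymphomas (0.00221 to 0.00629).

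The box C/D snoRNAs that fell in both lymphomas were Snord61, Snord33 and Snord57. Snord61, in an intron of Rbmx, the gene of a splicing factor on the X chromosome, was at 7.51, 7.72 and 7.70 in normal thymocytes and at 5.90, 5.77 and 5.96 in the wild-type lymphomas. It was at 4.52, 4.98 and 5.93 in Dnmt3b-/- lymphomas and at 5.92 and 5.60 in pre-tumor thymocytes, below normal in all 8. The differences were -1.77 (SE 0.32), -2.50 (SE 0.32) and -1.89 (SE 0.35), with limma adjusted p = 0.00782, 0.00178 and 0.0108, the last lost without pre-tumor replicate 2 (0.0909).

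Snord33 (in Rpl13a) was at 9.25, 9.16 and 8.36 in normal thymocytes, 7.67, 7.53 and 7.83 in the wild-type lymphomas, 7.54, 7.19 and 8.23 in Dnmt3b-/- lymphomas, and 7.53 and 7.07 in pre-tumor thymocytes. Snord57 (in Nop56) was at 11.36, 11.23 and 10.31, then 9.67, 9.63 and 10.19, then 9.36, 9.61 and 10.19, and 9.72 and 9.66 in the same order. In both, normal replicate 3 was the lowest normal sample and still above all others. Snord33 differed by -1.25, -1.27 and -1.62 (limma adjusted p = 0.0342, 0.0309 and 0.02) and Snord57 by -1.14, -1.25 and -1.28 (0.0497, 0.0345 and 0.0486).

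The calls of Snord33 and Snord57 depended on single samples and, in wild-type lymphomas, on the model. There both were lost with only the 2 groups compared and with the replicate number as a block. That of Snord57 was also lost without moderation and with the probable controls kept. In wild-type lymphomas both were lost without normal replicate 1 or 2, wild-type replicate 1, 2 or 3 or Dnmt3b-/- replicate 1 (adjusted p = 0.0514 to 0.111 for Snord33 and 0.0528 to 0.152 for Snord57), and Snord57 also without Dnmt3b-/- replicate 2 (0.0743) or either pre-tumor replicate (0.074). In Dnmt3b-/- lymphomas both were lost without normal replicate 1 or 2, wild-type replicate 1 or 2 or Dnmt3b-/- replicate 1 or 2 (0.0502 to 0.104 and 0.053 to 0.114), and Snord57 also without either pre-tumor replicate (0.054). Without normal replicate 3, by contrast, the members lower than normal numbered 8 of 109 in place of 3 in either lymphoma. In that setting 2642 and 2699 of all 28939 probe sets were lower in wild-type and Dnmt3b-/- lymphomas, a larger share than that of the members. Among the 8 were Snord22 (in Snhg1, limma adjusted p = 0.0117 and 0.00994), Snord15b (in Rps3, 0.0297 and 0.0208) and Snord35b (0.0158 and 0.0141).

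The small RNAs of some samples stood apart from their group, among them those of normal replicate 3. Against the other 2 normal samples its box C/D probe sets had a median difference of -0.59, and it was the lowest normal sample in 27 of 33. Probe sets with several symbols had a median of -0.41, with this sample lowest in 12 of 17. The medians of box H/ACA probe sets (-0.01), non-coding hosts (0.17) and all probe sets above the floor (0.00) showed no such shift. Still, this sample was lowest in 9 of 23 box H/ACA probe sets, among them Snora74a (5.61, against 6.67 and 6.57). Of 18 probe sets of other small RNAs (Scarna, Rnu, Rny, Rn7sk, Rmrp and like genes), 17 were above the floor, with a median of -0.38 and this sample lowest in 12. Dnmt3b-/- lymphoma replicate 3 moved the other way, with box C/D probe sets at 0.33 against the other Dnmt3b-/- lymphomas, highest in 26 of 33. Its other small RNAs were at 0.27, highest in 10 of 17. Over all probe sets 10.3%, 10.5% and 9.88% were lower than normal in wild-type lymphomas, Dnmt3b-/- lymphomas and pre-tumor thymocytes. Of the 18 probe sets of other small RNAs, 1 rose and 7 fell, 1 rose and 9 fell, and 11 fell in the same order. Their median differences from normal were -0.72, -0.82 and -0.95. Among them Rny3, a Y RNA, differed by -1.93, -2.06 and -2.29, and the minor spliceosome RNA Rnu12 by -1.45, -1.35 and -1.57, all called by limma. Per the labels the RNA was purified on columns; the part of small RNA recovery in the falls of box C/D snoRNAs was not tested.

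**Figure D3:**
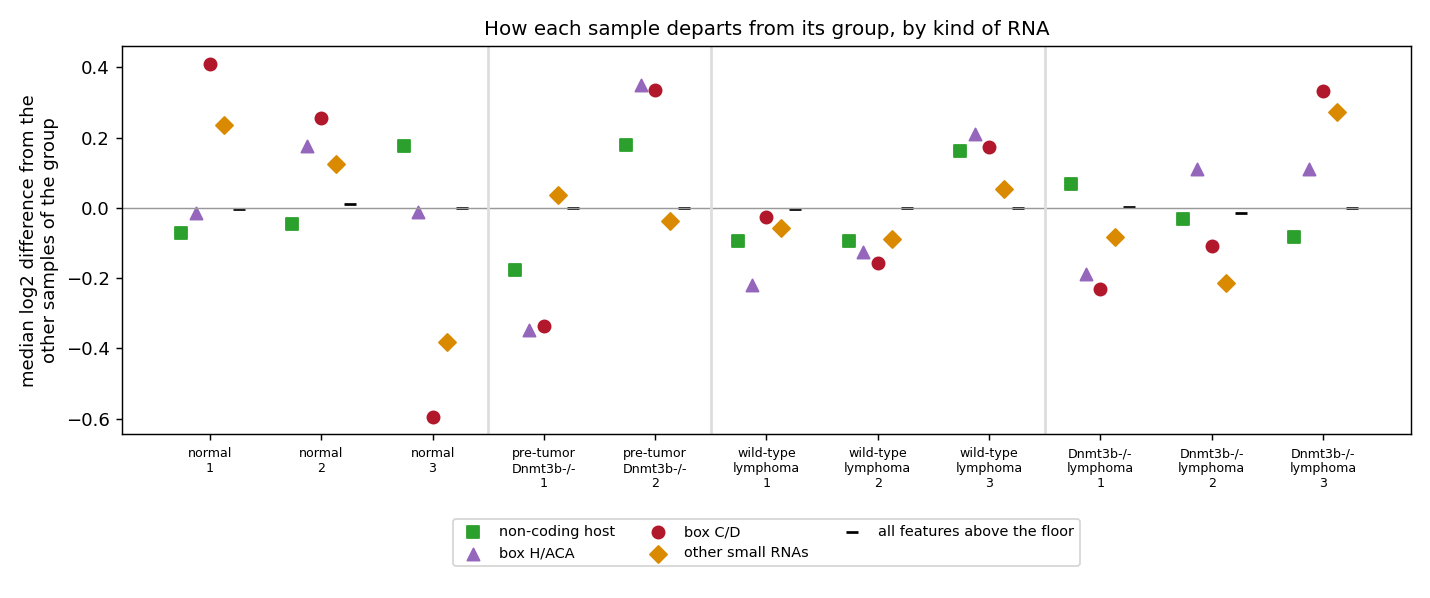
The horizontal axis gives the 11 samples and the vertical axis the median log2 difference of each sample from the other samples of its group, for non-coding hosts, box H/ACA and box C/D snoRNAs, other small RNAs and all probe sets above the floor. Normal replicate 3 has box C/D snoRNAs at -0.59 and other small RNAs at -0.38, and Dnmt3b-/- lymphoma replicate 3 has them at 0.33 and 0.27. All probe sets together stay near 0 in every sample.

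Hosts and the snoRNAs inside them were set side by side where the host had exactly 1 probe set of its own: 22 member probe sets in 17 hosts. In wild-type lymphomas 10 of the 17 hosts rose and 1 fell against normal, and in Dnmt3b-/- lymphomas 9 and 1. In pre-tumor thymocytes 10 rose and 0 fell. Over all probe sets 9.58%, 9.7% and 9.69% were higher and 10.3%, 10.5% and 9.88% lower in the same order. The hosts' median differences (1.12, 1.11 and 0.82) were larger than the members' (0.14, 0.13 and -0.09). The signs matched in 14, 16 and 17 of the 22 pairs, a count in which snoRNAs of 1 host, and copies of a probe set, are not independent.

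Ncl rose by 3.20, 3.46 and 3.43 in wild-type lymphomas, Dnmt3b-/- lymphomas and pre-tumor thymocytes (limma adjusted p = 0.00273, 0.00173 and 0.00435), beside Snora75. Snord82, a box C/D snoRNA of the same gene, differed by 0.40, 0.78 and 1.08 and did not pass (0.499, 0.167 and 0.0883). Wdr43 rose by 2.87, 2.80 and 2.65 (0.000414, 0.000314 and 0.00124), beside Snord53. Eef1b2 and Snora41 had nearly equal differences, 1.12 and 1.07 in wild-type lymphomas.

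In other pairs the host rose and the snoRNA did not. Ipo7, a nuclear import receptor gene, rose by 3.54, 3.53 and 3.75 (limma adjusted p = 0.00286, 0.00249 and 0.00473), while its Snora23 differed by 0.21, 0.06 and 0.10 (0.705, 1.00 and 1.00). Tcp1, a chaperonin gene, rose by 1.95, 2.09 and 1.78 with Snora20 at 0.62, 0.41 and 0.61, not passing. Rpl4 rose by 1.53, 1.46 and 1.53 (0.000853, 0.000767 and 0.00188) with Snord16a at -0.27, -0.10 and -0.55, not passing. Nop56, itself a core protein of box C/D snoRNPs, rose by 0.74, 1.11 and 0.52 (0.00372, 0.000795 and 0.0231) while its Snord57 fell; the pre-tumor rise was lost without normal replicate 1 or 2 (0.0632, 0.0717) or pre-tumor replicate 2 (0.184). Rbmx differed by -0.67, -0.61 and -0.67 and did not pass (0.189, 0.246 and 0.245), beside the fall of Snord61.

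**Figure D4:**
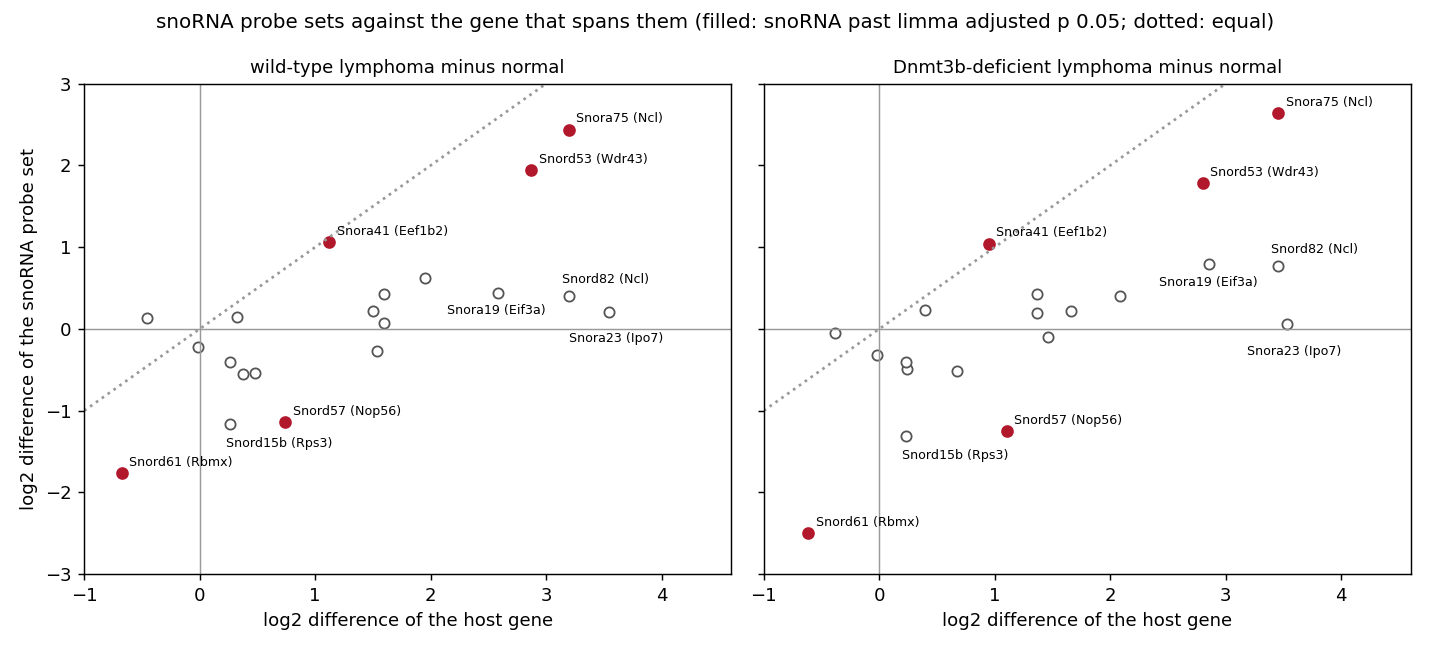
Each point is a snoRNA probe set whose host has 1 probe set of its own; the horizontal axis is the log2 difference of the host gene from normal and the vertical axis that of the snoRNA, in wild-type (left) and Dnmt3b-/- lymphomas (right), with copies of a probe set drawn once. Most points lie below the dotted line of equal differences, and Nop56 lies to the right of 0 with Snord57 below 0.

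Most core protein genes of the pathway rose. For the counts that follow, the shares of all probe sets higher than normal were 9.58% in wild-type lymphomas, 9.7% in Dnmt3b-/- lymphomas and 9.69% in pre-tumor thymocytes. The shares lower than normal were 10.3%, 10.5% and 9.88%. Of 12 probe sets of 8 snoRNP core genes, 8 rose and none fell in each of wild-type lymphomas, Dnmt3b-/- lymphomas and pre-tumor thymocytes, with medians of 0.82, 1.06 and 0.68. The H/ACA pseudouridine synthase Dkc1 rose by 3.60, 4.01 and 3.78 (limma adjusted p = 0.00199, 0.00112 and 0.0035) and the C/D protein Nop58 by 3.28, 3.49 and 3.47 (0.00204, 0.00137 and 0.00347). The methyltransferase Fbl rose by 1.41, 1.48 and 1.11 in its brighter probe set (0.00333, 0.0024 and 0.0142), and the 4 probe sets of Snu13, which also binds box C/D RNA, did not pass (differences 0.04 to 0.46). Of 13 assembly and maturation genes 10 rose and 1 fell in each lymphoma, and 7 rose and none fell in pre-tumor thymocytes. Of 23 probe sets of RNA polymerase I and its factors, 15 rose and 1 fell in each lymphoma and 12 rose and 1 fell in pre-tumor thymocytes. Of 7 nonsense-mediated decay genes, the pathway that decays Gas5 and Snhg transcripts, 2 rose and 2 fell in wild-type lymphomas, 2 and 1 in Dnmt3b-/- lymphomas, and 2 and 2 in pre-tumor thymocytes.

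In pre-tumor Dnmt3b-/- thymocytes, before any tumor, 9 members rose and 8 fell against normal (8.26% and 7.34% of 109), where 9.69% of all probe sets were higher and 9.88% lower. The rises were those of Gas5 (3 probe sets), Snora75, Snord53 and Snord52 given above, of Snora41 by 0.81 and Snora70 by 0.69 (limma adjusted p = 0.0308 and 0.0455), and of Snora28;Eif5 by 0.79 (0.0496). The falls were those of Snord61, Snord33 and Snord57, and of Snord15a (in Rps3, -1.27), Snora52 (in Rplp2, -1.15), Snord49b and Snord49a (in 2410006H16Rik, -1.14 and -0.55) and Snord104 (in Gm36220, -0.99), with limma adjusted p between 0.0154 and 0.0419. By class 3 of 12 non-coding host probe sets rose (median 0.46), all of them of Gas5. Of box H/ACA probe sets 3 of 23 rose and 1 fell (-0.02), and of box C/D probe sets 2 of 33 rose and 7 fell (-0.55). The median over all probe sets above the floor was -0.09. Without pre-tumor replicate 1 the box C/D median was -0.33 and the box H/ACA median 0.09, and without pre-tumor replicate 2 they were -0.65 and -0.25.

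Snord49b was at 9.14, 9.35 and 9.04 in normal thymocytes and at 7.70 and 8.36 before tumors, against 8.52, 8.53 and 8.91 in the wild-type lymphomas and 8.87, 8.87 and 9.33 in the Dnmt3b-/- lymphomas. Pre-tumor samples were the lowest of all groups, and the Dnmt3b-/- lymphomas overlapped the normal samples.

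This pre-tumor count rested on few samples. It was 9 without normal replicate 1, 8 without normal replicate 2, 7 without pre-tumor replicate 2, and 2 when the fit held the 2 groups alone. The split of 9 rises and 8 falls became 6 and 16 without normal replicate 3, 14 and 2 without pre-tumor replicate 1, 12 and 7 with median-centred arrays and 7 and 11 after quantile normalization. Snord49b was lost without pre-tumor replicate 1 (0.0683). Without pre-tumor replicate 2 adjusted p-values were 0.204 for Snora41, 0.242 for Snora70, 0.318 for Snora28;Eif5, 0.154 for Snord33, 0.224 for Snord57, 0.101 for Snord15a, 0.123 for Snora52, 0.213 for Snord104 and 0.12 for Snord49a. These 9 calls were also lost without normal replicate 1 (0.0502 to 0.118) and without normal replicate 2 (0.0598 to 0.133), and 6 of them, all but Snora41, Snord33 and Snord15a, without at least 1 of the lymphoma samples (0.0505 to 0.0762). Pre-tumor replicate 1 was below replicate 2 in 65 of the 85 members above the floor, with a median difference of -0.35, against 0.00 over all probe sets.

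Between Dnmt3b-/- and wild-type lymphomas, the comparison of the loss of Dnmt3b under MYC, no member passed: 0 of 109 by limma, where 2 of 28939 probe sets (0.00691%) passed. The ordinary linear model without moderation also gave 0, and 7 members had an unadjusted p under 0.05 in limma, beside 6.299% of all probe sets. The largest difference was in the U14 snoRNAs of Hspa8. Snord14e was lower in all 3 Dnmt3b-/- lymphomas, by a difference of -1.14 (SE 0.20, limma adjusted p = 0.307), and the probe sets Snord14d;Snord14c;Hspa8 by -0.86 and -0.84 (0.602 and 0.614). The 3 probe sets of Hspa8 alone differed by 0.02, 0.05 and 0.06 (1.00 each). Without overlap between the tumors, but not passing, were 6 members higher (Snora73a by 0.23, Snord49a by 0.39, Snora2b by 0.38, the Snora3 probe sets by 0.25 and 0.24 and an Snhg11 probe set by 0.24) and 5 lower (these U14 probe sets, Snord85 by -0.28 and Snord8 by -0.20). Over all probe sets 4.64% were higher and 3.34% lower without overlap. Snora70 differed by 0.41 with overlap (0.791).

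The 12 non-coding host probe sets all had a positive difference between these tumors, from 0.04 to 0.41 (median 0.20, against 0.02 over all probe sets above the floor). Outside this class are host probe sets that also name a snoRNA: Snora43;Snhg7 differed by -0.04 and Snora24;Snhg8 by 0.24. Some of the 12 are probe sets of the same gene (Gas5, Snhg17 or Snhg11), so they are not independent. None passed, and the sign of 2 of them turned without wild-type replicate 1: Snhg15 to -0.10 and the Snhg17 probe set 10489235 to -0.05. Box H/ACA snoRNAs had a median of 0.14, which was 0.0046 without Dnmt3b-/- replicate 3 and 0.012 without wild-type replicate 1. The median of box C/D snoRNAs was -0.0033 and ran from -0.12 (without Dnmt3b-/- replicate 3) to 0.12 (without Dnmt3b-/- replicate 1). Probe sets with several symbols had a median of 0.06, which was -0.14 without Dnmt3b-/- replicate 3, 0.0040 and -0.022 without wild-type replicate 1 and 2, and 0.14, 0.10 and 0.11 without Dnmt3b-/- replicate 1 or 2 or wild-type replicate 3.

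Between tumors and pre-tumor thymocytes few members stood out. In Dnmt3b-/- lymphomas, which share their genotype with the pre-tumor samples, 1 member rose and none fell, where 0.0311% of all probe sets were higher and 0.038% lower. This was Snora73a, higher by 0.73 (SE 0.07, 1.65-fold, limma adjusted p = 0.0296). Its call was lost without any 1 of the normal replicates (0.0621 to 0.0655), without wild-type replicate 1 or 3 (0.0538, 0.0569), Dnmt3b-/- replicate 3 (0.0531) or pre-tumor replicate 2 (0.0757). Snord49a (0.99) and Snora44 (1.12) followed without passing (0.0983 and 0.15).

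In wild-type lymphomas 0 members passed against pre-tumor thymocytes by limma (16 at an unadjusted p under 0.05, beside 7.77% of all probe sets, and 0 by the unmoderated model), where 0.0276% of all probe sets were higher and 0.0795% lower. Snord14e was closest, with a difference of 1.71 (SE 0.23, limma adjusted p = 0.065), and passed with median-centred arrays (0.0432) and without wild-type replicate 2 (0.024). Most members were above their pre-tumor level, 74 of 85 in Dnmt3b-/- and 70 of 85 in wild-type lymphomas. Their medians were 0.36 and 0.26, against 0.03 and 0.01 over all probe sets above the floor. Without pre-tumor replicate 1 the counts of members were 52 and 51, with medians of 0.17 and 0.06.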

How the data were processed

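Deposited log2 values of 11 Affymetrix whole-transcript arrays (300 ng of RNA each, per the labels) were used as the authors gave them; Partek and RMA are named in the submitters' processing notes, without versions. A genome build was not given in the sources used here. Of 35512 probe sets, 6573 probable controls were left out. A mean per group was estimated from all 11 samples by lmFit and eBayes without trend (limma 3.58.1, R 4.3.3; prior and residual degrees of freedom 0.46 and 7), and p-values were adjusted (Benjamini-Hochberg) over 28939 probe sets; the fit was tested on simulated data. Differences are the group named first minus the other. Hosts are the shortest RefSeq gene (GRCm38.p6) spanning a snoRNA, without regard to strand, which the table does not hold; 95 members had one. Named were all Snhg and Gas5 members, Dnmt3b, Myc and, per comparison, the 10 largest rises and falls past the threshold without overlap (5 largest at an unadjusted p under 0.05 where fewer than 5 passed), with their hosts; Snord47, Snord82, Snora16a, Snord49b's lymphoma levels and the smaller H/ACA rises were named after their values were seen. Members and lists were chosen with earlier results of these data known. Alternatives changed scaling, variance model, filters, samples, threshold and members.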

Additional observations from a re-analysis of the deposited data

How the results depend on the processing

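Members changed between the tumor genotypes numbered 0 in all 23 alternatives. For wild-type and Dnmt3b-/- lymphomas against normal (21 and 22 changed) each alternative stayed within 1.5 times, with 14 to 24 and 18 to 25 when 1 sample was left out. The pre-tumor count of 17 was 28 without the dimmest probe sets (lowest 25%), 2 with only the 2 groups compared, and 7 to 22 without 1 sample. For Dnmt3b-/- lymphomas against pre-tumor thymocytes the count of 1 was 0 after quantile normalization, without moderation, with only the 2 groups, with the replicate block and at a fold of at least 2, and 0 to 1 without 1 sample. For wild-type lymphomas against pre-tumor thymocytes the count of 0 was 1 with centred arrays, 1 without floor probe sets, 3 without the dimmest, and 0 to 2 without 1 sample. Deviations of same-numbered samples from their group means correlated at -0.33 to 0.32 (3 of 15 pairs over 0.1). In such small groups the deviations are tied to each other, so these values cannot decide whether numbers pair samples. The labels do not say so. With the replicate block 18, 19, 12, 0 and 0 members changed in these comparisons in the order given, and 0 between the tumor genotypes. Dnmt3b differed by -0.26 to -0.09 without 1 sample. Of 61 called member differences, 22 kept their call in every alternative, and of 68 not called, 22 passed in at least 1; the cause was not tested.

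Signs turned for values near 0. After quantile normalization Snhg11 became 0.010 (wild-type lymphomas against normal) and 0.020 (pre-tumor against normal). Centred arrays gave 0.012 for Snhg11 in wild-type lymphomas, and before tumors 0.049 for Snora43;Snhg7 and 0.032 for Snhg17. When 1 sample was left out, Snhg15 ran from -0.097 to 0.146, Snhg17 from -0.048 to 0.238 and Snora43;Snhg7 from -0.132 to 0.069 between the tumor genotypes; Snhg11 from -0.203 to 0.155 in wild-type lymphomas; Snhg11 from -0.057 to 0.134 and Snora24;Snhg8 from -0.194 to 0.055 in Dnmt3b-/- lymphomas; and before tumors Snora43;Snhg7 from -0.059 to 0.013 and the host Rps3 from -0.384 to 0.090. Class medians without 1 sample were added after seeing the data.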
